A study of Mus musculus with 24 samples.

Results

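MommeD43 was compared with wild type in primary neural stem cells (NSCs) that express SMCHD1 as a fusion with GFP on the C57BL/6J background. Of the 24 RNA-seq libraries of the series, 11 were compared here, namely all usable libraries labelled Smchd1GFP. They were 6 from 4 wild-type lines and 5 from 4 MommeD43 lines. Lines are told apart by the cell line numbers of the labels, which do not state how many embryos gave a line. The deposited column of MommeD43 replicate 2 in batch 1 is identical to the average over its group's remaining 5 columns and was left out. Both groups are on C57BL/6J and, by the study's description, homozygous for the Smchd1-GFP fusion, although the labels give the genotype of the controls as Smchd1+/+. The MommeD43 group is labelled Smchd1MommeD43/MommeD43. Its change was put into the fusion allele with Cas9, together with a silent change of the PAM, and the mice were backcrossed before use. All cells came from E14.5 cortex, were grown for fewer than 10 passages, and gave 100 ng of RNA per library. The libraries were labelled female. Batch 1 held 3 wild-type and 2 MommeD43 libraries and batch 3 held 3 of each. In values by line, the 3 lines sequenced in both batches were counted once. The fit held both libraries of such a line as separate values, tied by line as a block (consensus correlation 0.0831). The FVB/NJ cells of the series carry the chemically induced allele without GFP and gave side-by-side values. Their libraries also entered the same fit, where they shared its batch terms and its estimate of spread.

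SMCHD1 is a chromatin protein with an ATPase domain and a hinge domain, related to the SMC proteins that form cohesin and condensin. It is known for its part in silencing the inactive X chromosome, imprinted clusters, the clustered protocadherins and Hox clusters. NSCs from embryonic cortex are radial glia kept dividing by growth factors. They can form neurons, astrocytes and oligodendrocytes, and express Nes, Sox2, Vim and Fabp7.

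The MommeD43 change is A667E, an alanine to glutamate substitution in the extended ATPase domain. The stretch below is shown because the edited codon is what separates the groups. It is the coding strand of exon 15 of Smchd1 in the reference, at chr17:71427469-71427531 of GRCm38 (minus strand), with the codon of residue 667 in capitals. The allele carries GAA in place of GCA.
Smchd1 codon 667: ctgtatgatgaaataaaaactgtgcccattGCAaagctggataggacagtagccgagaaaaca

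Before the comparison, the libraries were checked against their labels. Genes that mark NSCs were high in all 8 lines, at 10.2 to 10.7 log2 CPM (CPM is reads of a gene scaled to the size of the library) for Nes, 7.39 to 7.82 for Sox2, 10.8 to 11.9 for Vim and 10.1 to 10.8 for Fabp7. The label for sex was not matched by the sex-linked genes. All 11 libraries listed the Y-linked genes at clear levels, with Ddx3y at 5.96 to 6.95 log2 CPM, Eif2s3y at 5.43 to 6.11, Kdm5d at 5.18 to 5.75 and Uty at 4.69 to 5.16. Xist, the RNA of the inactive X chromosome, was listed at -1.21 to 0.95 log2 CPM, at most 1.93 CPM. The SD of the Y-linked genes over libraries was 0.142 for Uty and 0.298 for Ddx3y, against medians of 0.198 and 0.169 for autosomal genes within 0.25 log2 of the same level. The authors state a correction for sex before deposit, so the listed level of a sex-linked gene need not be its level before that step, and its part in these values was not tested. The plot of Y-linked genes shows these levels in both groups. Values of X-linked genes are therefore given without reference to an inactive X chromosome.

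**Figure D1:**
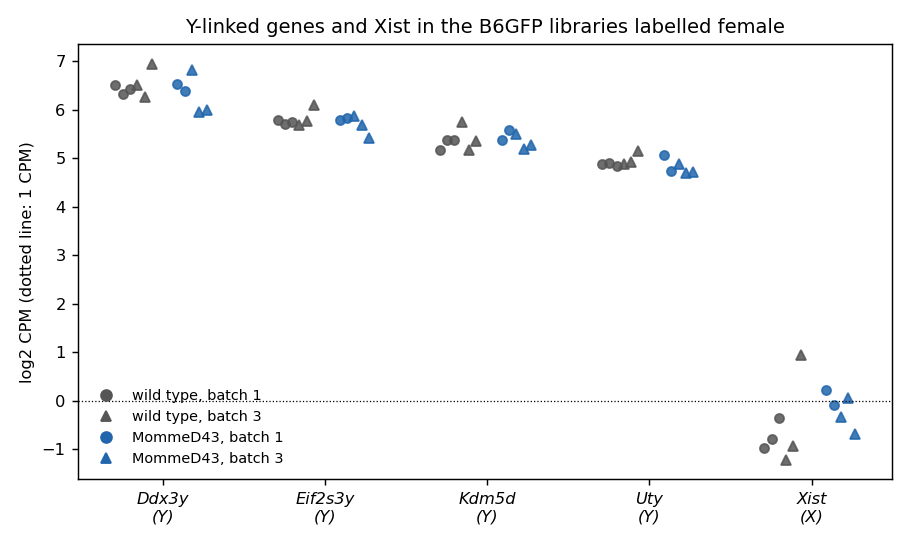
Levels (log2 CPM, y axis) of 4 Y-linked genes and Xist in each of the 11 B6GFP libraries, which are labelled female. Grey points are wild type and blue points MommeD43, with circles for batch 1, triangles for batch 3 and a dotted line at 1 CPM. Ddx3y, Eif2s3y, Kdm5d and Uty lie between 4.69 and 6.95 in all libraries, and Xist lies between -1.21 and 0.95.

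The libraries differed in quality by batch. Over 9923 genes with a mean of at least 3 log2 CPM, the SD of a library from its group mean was 0.12 to 0.156 in batch 1 and 0.23 to 0.484 in batch 3, and the quality weights of the fit were 1.2 to 2.56 in batch 1 and 0.101 to 1.29 in batch 3, without following that SD library by library within batch 3. Wild-type replicate 4 (weight 0.101) and MommeD43 replicate 2 (weight 0.158), both of batch 3 alone, had the lowest weights. The 3 lines sequenced in both batches did not resemble themselves closely: the correlation across genes of their deviations from the group mean was -0.06, 0.24 and 0.30, against -0.47 to 0.16 for other lines of the same group. Some lines of both groups share the number before the point of their label, and same-batch libraries of such lines correlated at 0.721 (wild-type replicate 2 with MommeD43 replicate 4), 0.215 and 0.115 (wild-type with MommeD43 replicate 3), against -0.648 to 0.204 for the other 12 same-batch pairs of opposite genotype. These points share their group means, and genes are not independent. The fitted changes below therefore rest mostly on batch 1, and the mean of a group over lines can differ from them.

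The RNA of the mutated gene itself was measured first. In the wild-type lines (replicates 1 to 4) Smchd1 was listed at 6.93, 7.2, 7.14 and 6.58 log2 CPM, and in the MommeD43 lines at 7.04, 7.42, 7.2 and 6.99. The groups overlapped, with means of 6.96 ± 0.277 and 7.16 ± 0.193 (SD, n = 4 lines each). The fitted change was -0.0087 with a 95% interval of -0.17 to 0.15, with adjusted p = 1 by limma. The direction depended on the setting, since 11 of 29 alternatives gave a value above 0, up to 0.20 with line means.

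The main question was which genes the edited allele alters across the transcriptome. No gene passed the threshold of adjusted p = 0.05, that is 0 of 14922 tested (0%), by limma with quality weights and Benjamini-Hochberg adjustment. With the number before the point of the line label as block in place of the line, 2 genes passed by limma, Pcdh7 at adjusted p = 0.0346 and Tchh at adjusted p = 0.0465. At an unadjusted p under 0.05 there were 319 genes (2.14%), where 5% of the genes would be 746, with 152 higher and 167 lower in MommeD43. The fit was narrow for most genes. Of 12823 genes with a mean of at least 1 CPM, 12511 (97.6%) had a 95% interval that lay within 2-fold in both directions, and the median SE was 0.092 log2. Below 1 CPM only 49.8% of genes were bounded in this way. The median change over all genes was 0.011.

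The count depended on single MommeD43 lines. Without MommeD43 replicate 1 the same fit called 107 genes, 73 higher and 34 lower. Without MommeD43 replicate 3 it called 139, of which 38 were higher and 101 lower. In both fits the MommeD43 library left in batch 1 had the highest weight of all libraries. That weight was 5.26 for replicate 3 and 10.9 for replicate 1, against 1.2 and 2.2 in the main fit. Leaving out any other single line gave 0 to 2 genes.

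Pcdh7 had the smallest p of all genes. It encodes a non-clustered protocadherin, a cell adhesion protein of the cell surface, and lies at chr5:57716145-58133236 of GRCm38.p6. Its wild-type lines stood at 5.58, 5.50, 5.72 and 6.63 log2 CPM and its MommeD43 lines at 4.68, 5.19, 4.72 and 3.96. All 4 MommeD43 lines thus lay below all 4 wild-type lines, while 1 wild-type library of batch 3 at 5.2 came level with MommeD43 replicate 2. The group means were 5.86 ± 0.523 and 4.64 ± 0.508 (SD, n = 4 lines each). The fitted change was -1.04 (SE 0.173), or 2.05-fold lower, with adjusted p = 0.0569. The change was -1.01 within batch 1 and -0.83 within batch 3. Over 29 alternatives it ran from -1.22 to -0.83, with 10 of them past the threshold. Those 10 included fits without an FVB/NJ line. They also included all 24 columns, where columns equal to a mean reduce the spread by construction. With wild-type replicate 4 and MommeD43 replicate 2 both left out Pcdh7 passed at -1.07 (adjusted p = 0.0289 by limma). It also passed without MommeD43 replicate 1 (-1.0, adjusted p = 0.00675) or MommeD43 replicate 3 (-1.07, adjusted p = 0.00146). The fits without MommeD43 replicate 1 or 3 called 107 and 139 genes in all, and in each a single MommeD43 library had the highest weight. In FVB/NJ the fitted change was -0.31 (SE 0.133, adjusted p = 0.632), and the difference between the strains was -0.73 (SE 0.218, adjusted p = 1, unadjusted p = 0.00316). Of the other 11 non-clustered protocadherins in the table, none had an unadjusted p under 0.05, against 2.14% of all genes. Pcdh10 and Pcdh18 were at -0.17 and 0.17.

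**Figure D2:**
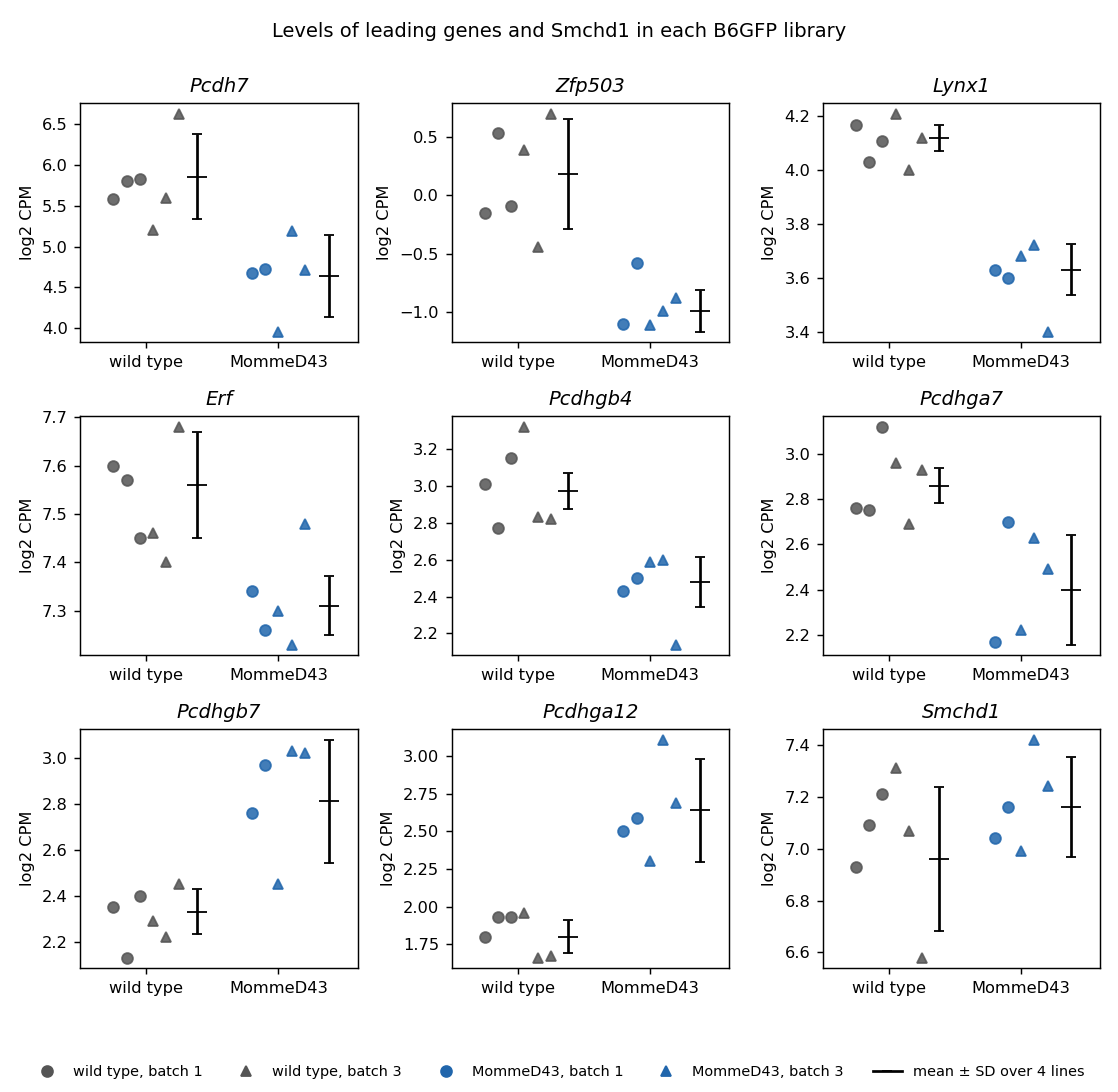
Levels (log2 CPM, y axis, with a range of its own in each panel) of 8 genes with small p-values and of Smchd1 in each B6GFP library. Circles are libraries of batch 1 and triangles of batch 3, grey for wild type and blue for MommeD43, and the black marks give the mean and SD over 4 lines. By line, MommeD43 is below wild type throughout for Pcdh7, Zfp503, Lynx1, Erf, Pcdhgb4 and Pcdhga7 and above it for Pcdhga12, while Pcdhgb7 touches and Smchd1 overlaps, and single libraries of Erf and Pcdhga7 overlap.

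The other 19 genes of at least 1 CPM with the smallest p all had an adjusted p of 0.392 or more, and 16 of these 19 were lower in MommeD43. Among all 212 genes of at least 1 CPM with an unadjusted p under 0.05, 102 were lower and 110 higher. The 19 genes are given here with what each is known for, and no shared role was tested. Among these 19 were Elfn1, a synaptic adhesion protein, at -0.54 (SE 0.164), and Lynx1, a modulator of nicotinic receptors, at -0.495 (SE 0.156). The wild-type lines of Lynx1 lay at 4.05 to 4.17 log2 CPM and its MommeD43 lines at 3.50 to 3.72, without overlap, with means of 4.12 ± 0.0469 and 3.63 ± 0.0956 (SD, n = 4 lines each), and the change was -0.49 within batch 1 and -0.63 within batch 3. In FVB/NJ Lynx1 was at -0.44 (SE 0.12, adjusted p = 0.24). Elfn1 overlapped, since MommeD43 replicate 3 stood at 4.44, above the wild-type lines at 4.05 to 4.43, and its change was -0.18 without MommeD43 replicate 1, -0.26 without wild-type replicate 2 and -0.27 without MommeD43 replicate 4.

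Also among them were Cd14, a co-receptor for bacterial lipopolysaccharide, at -0.70 (SE 0.237), Csf2ra, a subunit of the GM-CSF receptor, at -0.77 (SE 0.246), Npr3, the clearance receptor for natriuretic peptides, at -1.0 (SE 0.261), and Bcam, a laminin-binding adhesion molecule, at -0.70 (SE 0.213). The lines did not overlap for Cd14, at 1.53 to 2.37 against 0.60 to 1.48 log2 CPM, or for Csf2ra, at 1.19 to 2.83 against 0.415 to 1.16. Single libraries of both genes did overlap. Csf2ra stood at 0.348 in the batch 3 library of wild-type replicate 3, and Cd14 at 1.11 in that of wild-type replicate 2. The lines overlapped for Npr3 and Bcam. Without MommeD43 replicate 1 the change of Bcam was -0.15 and that of Cd14 -0.44, and with line means that of Npr3 was -0.56. Leaving out wild-type replicate 2 or MommeD43 replicate 4 moved Bcam to -0.45 and -0.37, and leaving out wild-type replicate 2 moved Cd14 to -0.46. Others were Erf, a repressor of the ETS family, at -0.22 (SE 0.071), and Cbfb, the partner of RUNX factors, at 0.19 (SE 0.0615). Erf lay at 7.43 to 7.68 in wild type and 7.23 to 7.37 in MommeD43, with no overlap of the lines, but its change within batch 3 was -0.06. Rec8, a cohesin subunit of meiosis, was at -1.35 (SE 0.456), but its wild-type lines ran from -0.40 to 3.41 and overlapped the MommeD43 lines at -2.25 to 0.23. The change of Rec8 was -2.24 with line means, -0.69 with the replicate block, -0.455 without wild-type replicate 2, -0.50 without MommeD43 replicate 1 and -0.87 without MommeD43 replicate 4. The rest were Rab39, Mpp7, Cyp20a1, Greb1 and the gene with Entrez identifier 100040320, at -0.835 to -0.185, and 4 genes of the protocadherin gamma cluster described below.

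Among the 5 smallest p over all genes, 2 genes were listed below 1 CPM on average, where fitted changes spread most widely and no fold is given. Tchh, which encodes the hair follicle protein trichohyalin, stood at -0.91, -0.81, -0.95 and 0.87 log2 CPM in the wild-type lines and at -3.61, -2.22, -3.30 and -2.70 in the MommeD43 lines, with no overlap (adjusted p = 0.0569). Its difference was -2.40 (SE 0.407) on the log2 scale and -0.52 when 1 CPM was added to each value. Tchh passed in 7 of 28 alternatives, among them the replicate block (adjusted p = 0.0172 by limma). It also passed by limma without MommeD43 replicate 1 (-1.82, adjusted p = 0.0277) or MommeD43 replicate 3 (-2.79, adjusted p = 0.000598). In each of these fits a single MommeD43 library had the highest weight. The 7 also held fits without an FVB/NJ line, and all 24 columns, where columns equal to a mean reduce the spread by construction. Zfp503, a zinc finger repressor of the developing striatum, stood at -0.16, 0.46, -0.27 and 0.69 in wild type and at -1.10, -0.99, -0.73 and -1.11 in MommeD43, again with no overlap. Its difference was -1.11 (SE 0.232, adjusted p = 0.392), and -0.64 without wild-type replicate 2 and -0.74 with the replicate block. In FVB/NJ Zfp503 was at 0.305 (SE 0.179), and the difference between the strains of -1.41 (SE 0.293) had an unadjusted p of 9.31e-05 and adjusted p = 0.695.

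**Figure D3:**
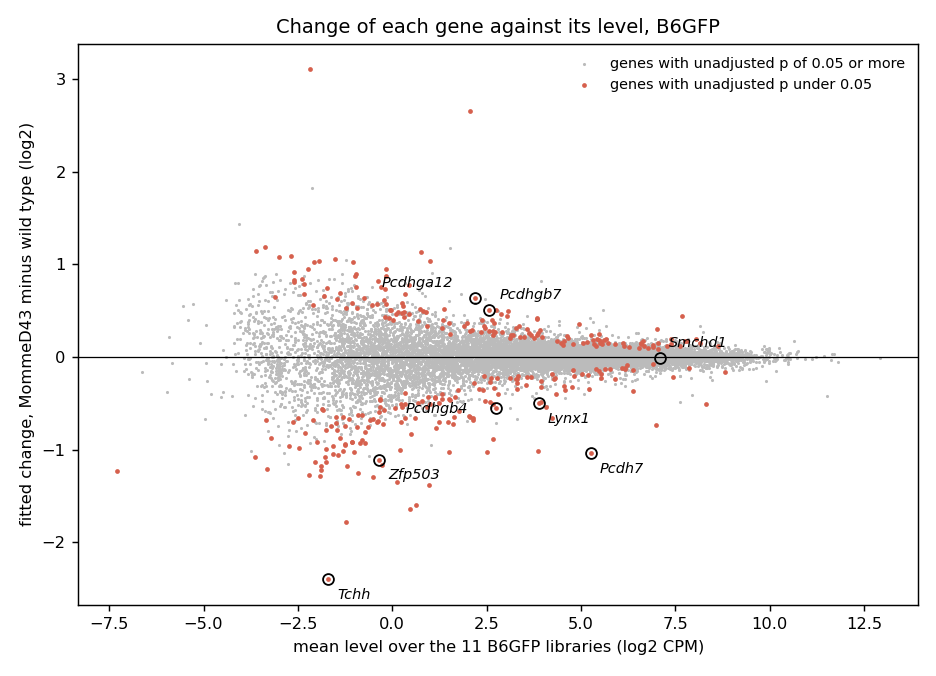
Fitted change of each of 14922 genes (MommeD43 minus wild type, log2, y axis) against its mean level over the 11 B6GFP libraries (log2 CPM, x axis). Red points are the 319 genes with an unadjusted p under 0.05, and circles mark 8 named genes. Changes spread widely below 0 log2 CPM and narrow as the level rises, and Pcdh7 lies at -1.04.

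Complete separation of the lines was counted as a measure that needs no model. In 113 genes (0.757%) all 4 MommeD43 lines lay above all 4 wild-type lines, and in 70 genes (0.469%) all lay below. With 4 lines against 4 some genes separate by chance, and no test was run on these counts. They are therefore not read as an effect of the allele. For genes named by their small p, separation comes from the same values and adds no support. The balance turned with the scaling, to 75 higher and 94 lower when each library was centred on its median. In all, 8 genes of at least 1 CPM combined separation with group means more than 1 log2 unit apart, and all 8 were lower in MommeD43. Among these genes, chosen after their values were seen, were Pcdh7, Gbx2, Klf5, Lgr5, Hist1h1d and H2-Ab1. Gbx2, a transcription factor of early neural patterning, stood at 0.88, 1.35, 2.21 and 3.25 log2 CPM in wild type and -0.35, -0.39, 0.40 and -0.54 in MommeD43. It did not pass, with a fitted change of -1.38 (SE 0.54) at adjusted p = 1. Wild-type replicate 4 was the highest wild-type line in all 8 of these genes. Without it 4 genes met both conditions as lower, among them Gbx2, Lgr5 and H2-Ab1, and 2 were higher, namely Sulf1 and Gria1. Without MommeD43 replicate 2 as well the counts were 4 lower, Pcdh7 among them, and 1 higher.

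The clustered protocadherins, cell surface proteins that give neurons an identity code and are known SMCHD1 targets, lie on chromosome 18. Counting by strand and overlap was not stated. Within the alpha cluster and within the gamma cluster, members share their last exons, so reads may have been split between them. In the gamma cluster (22 of 22 members at or above 1 CPM) 11 members were higher and 11 lower, the median change was -0.0031, and 7 (31.8%) had an unadjusted p under 0.05, against 2.14% of all genes, 3 higher and 4 lower. Pcdhgb7 was at 2.35, 2.21, 2.31 and 2.45 log2 CPM in wild type and 2.76, 3.03, 2.99 and 2.45 in MommeD43, a fitted change of 0.51 (SE 0.106, adjusted p = 0.392). Pcdhga12 was at 1.80, 1.94, 1.80 and 1.67 against 2.50, 3.11, 2.64 and 2.30, a change of 0.64 (SE 0.163, adjusted p = 1) with no overlap. Its FVB/NJ change was 1.02 (SE 0.125, adjusted p = 0.0005).

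Other gamma members lay the other way. Pcdhgb4 was at 3.01, 3.04, 2.99 and 2.82 in wild type and 2.43, 2.60, 2.32 and 2.59 in MommeD43, a change of -0.55 (SE 0.138). Pcdhga7 was at 2.76 to 2.93 against 2.17 to 2.63, a change of -0.51 (SE 0.168), which was -0.20 without MommeD43 replicate 1. By line neither overlapped, while single libraries of Pcdhga7 did, and both had adjusted p = 1. The most abundant signal of the cluster, Pcdhgc3, was at 8.95 ± 0.328 and 8.67 ± 0.398 (SD, n = 4 lines each), which overlapped. In the beta cluster 0 of 21 members had an unadjusted p under 0.05, 16 were lower and 5 higher, and the median was -0.14, which turned to 0.17 without MommeD43 replicate 1. Pcdhb19 and Pcdhb22 were at 0.20 and -0.14. In the alpha cluster all 13 members in the table were lower in the fit, with a median of -0.39, but 12 of the 13 were listed below 1 CPM and their median turned from -0.53 in batch 1 to 0.22 in batch 3.

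Other families linked to SMCHD1 followed. Of 44 imprinted genes listed, 26 were higher and 18 lower, with a median of 0.02, and 3 had an unadjusted p under 0.05. Cdkn1c, an imprinted inhibitor of the cell cycle, was at 2.41 ± 0.783 and 2.48 ± 0.28 log2 CPM (SD, n = 4 lines each), with wild-type replicate 4 lowest at 1.31, and its fitted change was -0.48. Mest and Gnas were at 0.04 and 0.06. Of 39 Hox genes looked for, 0 were in the table. The 536 X-linked genes had a median change of 0.02, with 304 higher and 232 lower and 11 (2.05%) at an unadjusted p under 0.05, against 8273 higher and 6649 lower and 2.14% over all genes. Ftx, a noncoding RNA of the X-inactivation centre, was at 0.31 (SE 0.109). The 42 genes within 5 Mb of Smchd1 had a median of 0.04 and 1 unadjusted p under 0.05, that of Ltbp1 at 0.34.

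Genes of chromatin silencing had no call either. The 29 genes of SMC complexes and SMCHD1 partners had a median of 0.02 and 0 with an unadjusted p under 0.05, with Lrif1, a heterochromatin partner of SMCHD1, at 3.42 ± 0.115 and 3.21 ± 0.171 log2 CPM (SD, n = 4 lines each) and a fitted change of -0.17. The 32 Polycomb genes (median 0.03) and 21 genes of DNA and H3K9 methylation (median 0.02) also had 0, against 2.14% over all genes. Dnmt3b, a de novo DNA methyltransferase, was at 2.12, 1.96, 2.01 and 1.82 in wild type and 2.26, 2.47, 2.23 and 2.30 in MommeD43, so that its lines did not overlap, while its fitted change was 0.27 with an interval of -0.0199 to 0.56. All 82 genes of these lists had intervals within 2-fold in both directions, against 97.6% of all genes of at least 1 CPM.

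The identity of the cells was compared next. Of 20 neural stem cell and radial glia genes 16 were lower and 4 higher, with a median of -0.06 (0.07 within batch 3) and 0 at an unadjusted p under 0.05. Vim, Nes and Slc1a3 were at 0.0048, -0.06 and -0.13. Id1, a target of BMP signals that keeps cells undifferentiated, had a fitted change of -0.28. Its lines did not overlap, but touched at 2.69 as rounded, with 2.69 to 4.49 in wild type and 1.70 to 2.69 in MommeD43. Single libraries of Id1 overlapped. The dorsal forebrain genes (13 in the table) had a median of -0.05, which turned to 0.30 within batch 3, 0.32 without weights and 0.36 with line means, with Lhx2 at 0.10. The ventral forebrain genes (11 in the table, 8 of them below 1 CPM) had a median of -0.23 (0.09 within batch 3, 0.08 without weights and 0.01 with line means), and Zfp503, described above, was the single member with an unadjusted p under 0.05. Astrocyte genes (19), oligodendrocyte lineage genes (19) and neuronal genes (25) had medians of 0.02, -0.18 and 0.10, with 0, 1 and 0 at an unadjusted p under 0.05. The oligodendrocyte median was 0.08 within batch 3, and the neuronal median ran from -0.14 within batch 1 to 0.56 with line means. Olig1 and Olig2, lineage factors of oligodendrocytes that cultured NSCs also express, were at 0.03 and -0.025. Of markers of other cell types, 3 of 15 microglia and macrophage genes, 12 of 15 endothelial and mural genes, 11 of 15 meningeal fibroblast genes and 7 of 15 ependymal and choroid plexus genes were in the table, of which 0, 0, 1 and 0 had an unadjusted p under 0.05. Over all genes 2.14% did.

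Signalling and matrix lists came next. The Notch (26 genes), Hedgehog (16), Wnt (30), BMP and TGF-beta (31) and EGF and FGF (26) lists each had 0 genes at an unadjusted p under 0.05, with medians of 0.0030, -0.02, -0.02, -0.0047 and -0.05. Notch1 and its target Hes5 were at -0.0039 and -0.47, the latter with an SE of 0.368. Axon guidance (42 genes, median 0.02), potassium channels (33, -0.0077), glutamate and GABA receptors (27, 0.06) and extracellular matrix (44, 0.03) had 1, 1, 0 and 2 such genes. Over all genes the share was 2.14%. The 2 matrix genes were Nid1 at -0.59 and Vcan at -0.36, a basement membrane protein and a matrix proteoglycan. Cadherins and catenins (20) had a median of 0.02, with Ctnnb1 at 0.02 (SE 0.0415).

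List medians were small and turned sign in at least 1 alternative for 34 of 38 lists, so their directions are those of the fit described and no more. In the metabolic lists more genes had a fitted change below 0 than above, by small amounts. Of 26 cholesterol genes 25 were lower, with a median of -0.09. All had intervals within 2-fold, against 97.6% of all genes of at least 1 CPM. Of 30 glycolysis and hypoxia genes 26 were lower (median -0.13), of 41 oxidative phosphorylation genes 33 were lower (median -0.03), and of 74 cytosolic ribosomal protein genes 67 were lower (median -0.05). Over all genes 6649 were lower and 8273 higher. Unadjusted p-values under 0.05 were found for 0, 0, 0 and 2 genes of these lists, against 2.14% over all genes. Hmgcs1 and Srebf2 of the cholesterol list were at -0.08 (SE 0.0924) and -0.10 (SE 0.0485), and Ldha and Gapdh of the glycolysis list at -0.15 (SE 0.151) and -0.16 (SE 0.0982). Genes of a list vary together within a library, so the number below 0 is no count of independent observations. By line, the lists overlapped: the cholesterol list lay between -0.14 and 0.35 in wild type and between -0.51 and 0.03 in MommeD43, relative to the mean of the 8 lines, and the median over its genes turned from -0.135 in batch 1 to 0.143 in batch 3. The glycolysis list lay between -0.22 and 0.31 against -0.28 and 0.05, and its median over genes was 0.01 without wild-type replicate 1. The ribosomal list lay between -0.46 and 0.16 against -0.14 and 0.33, and the difference of its group means was 0.06, against the sign of the fit. Cell cycle (40 genes), p53 and stress (36), interferon and MHC class I (33) and the S100 family with trichohyalin (9) had medians of 0.0021, -0.04, -0.06 (0.825 within batch 3) and -0.07. Each had 1 or 0 genes at an unadjusted p under 0.05.

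**Figure D4:**
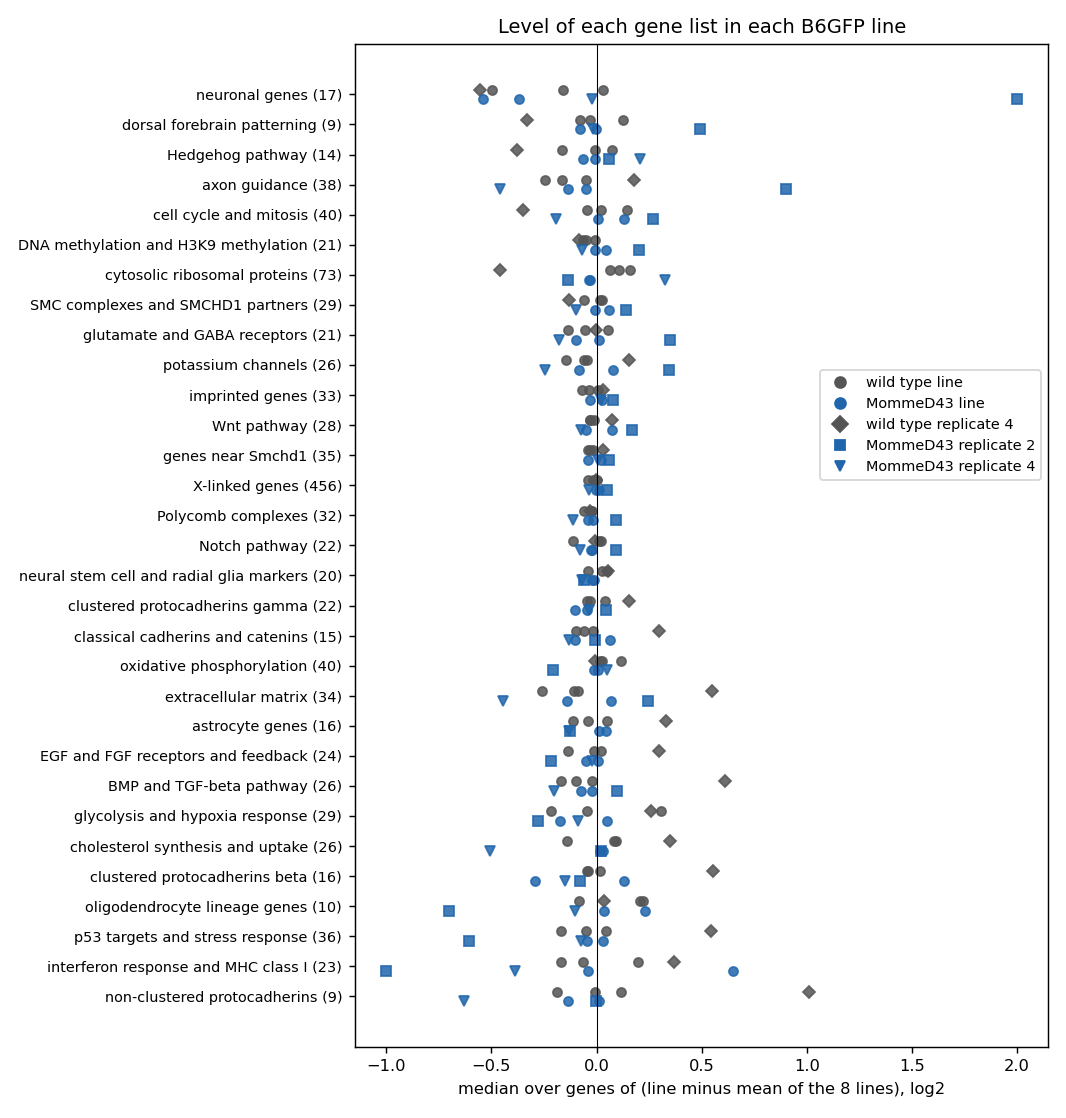
Level of each gene list in each B6GFP line (x axis, log2), as the median over its genes of at least 1 CPM of the line minus the mean of the 8 lines, with the number of genes in parentheses. Grey points are wild-type lines and blue points MommeD43 lines, and 3 lines that often lie at an end have shapes of their own. The groups overlap in every list shown, and the farthest point is MommeD43 replicate 2 at 2.0 for neuronal genes.

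Single lines stood apart within their genotype. For all 34 lists with at least 3 genes of 1 CPM or more, the MommeD43 and wild-type lines overlapped. MommeD43 replicate 2 stood 2.0 above the mean of the 8 lines for neuronal genes, where the other 7 lay between -0.56 and 0.03. In it the neuronal tubulin Tubb3 was at 6.48 log2 CPM and the migration protein Dcx at 5.2, against at most 3.30 and 0.28 in wild type, and Nsg2 and Kif5c, neuronal genes of vesicle trafficking, were at 6.74 and 6.51 against at most 3.37 and 3.78 in the other 7 lines. The summed level of the 12 endothelial and mural markers was 4.51 in this line, 1.80 to 2.50 in the other MommeD43 lines and 1.93 to 5.29 in wild type, with the defining endothelial genes Cdh5, Pecam1 and Cldn5 at up to 0.65, 1.70 and 0.77. The interferon list was lowest in the same line, at -1.0 relative to the mean of the lines. In bulk RNA, more cells of a type and more RNA per cell cannot be told apart.

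Wild-type replicate 4 stood apart in other genes. Ccn2 and Thbs1, matrix proteins induced by YAP and TGF-beta signals, were at 8.45 and 8.70 log2 CPM in it and at 2.51 to 3.01 and 3.27 to 3.55 in the other wild-type lines. Cav1, a caveolar protein, was at 7.94 against 2.72 to 4.09, Itga7, a laminin receptor, at 9.34 against 4.44 to 5.69, and Fbxo32, a ubiquitin ligase, at 8.24 against 2.95 to 4.48. The astrocyte filament gene Gfap was at 2.72 in this line and at -2.17 to -1.18 in the other wild-type lines. In the MommeD43 lines Gfap was at -2.04 to -1.59. Cth and Pck2, enzymes of amino acid and phosphoenolpyruvate metabolism under ATF4, were high in MommeD43 replicate 4, at 6.05 and 7.67, and in the batch 3 library of wild-type replicate 2, at 5.03 and 7.45, against 1.67 to 3.39 and 3.96 to 5.53 in the other 9 libraries. The batch 1 library of that wild-type line stood at 3.05 and 4.77. Adcy2, an adenylyl cyclase, split lines of both groups, at 0.99 in wild-type replicate 3 and 1.22 in MommeD43 replicate 3 and at 3.08 to 5.24 in the other 6. The low lines are numbered 38.5 and 38.1 in the labels, and the lines high in Cth and Pck2 23.5 and 23.7. Wild-type replicate 1, numbered 23.2, was not high, with Cth at 3.39 and Pck2 at 5.38. Whether a shared first number marks a litter is not stated. The part of these line differences in the comparison was not tested beyond leaving lines out.

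The effect of MommeD43 was set beside that in FVB/NJ, where the allele carries no GFP, to ask whether it differed. Strain, GFP fusion and the origin of the allele changed together and cannot be told apart. In FVB/NJ the same fit called 11 genes, from 5 wild-type and 4 MommeD43 lines. For the difference between strains 0 of 14922 genes passed, and 458 (3.07%) lay under 0.05 before adjustment. The lowest adjusted p, 0.243, belonged to Shd, an adaptor with an SH2 domain, at 3.43, 2.99, 3.0 and 3.15 log2 CPM in the wild-type GFP lines and 3.16, 3.37, 3.0 and 3.03 in the MommeD43 GFP lines. Its change was -0.08 (95% interval -0.33 to 0.16) here and 0.745 (SE 0.0906) in FVB/NJ, a difference of -0.83 (SE 0.149). Shd was named for this difference, which did not pass, so the gap between these changes adds no support to it.

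Fzd10, a Wnt receptor, was at -0.02 here (SE 0.171) and -0.90 in FVB/NJ (SE 0.131), a difference of 0.87 (SE 0.215, adjusted p = 1). St3gal6, a sialyltransferase, was at 0.44 and -0.32, Cst3, a secreted inhibitor of cathepsins, at -0.235 and 0.25, and Ahsa2, an HSP90 co-chaperone, at 0.16 and -0.33, each with adjusted p = 1 for the difference. Of these, Cst3 had B6GFP lines that did not overlap, at 5.89 to 6.30 in wild type and 5.68 to 5.87 in MommeD43.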

How the data were processed

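The authors trimmed reads with Trim Galore 0.4.4, mapped them with HISAT2 2.0.5 to GRCm38.p6, and deposited log2 CPM values made with limma 3.40.6 and edgeR, corrected for batch, sex and strain. The counter was not given in the sources used here. The deposited values are log2 CPM and not counts, so read depth is unknown and no counting intervals are given. The fit used limma 3.58.1 (R 4.3.3) on 22 libraries with group and batch as terms, array quality weights, line as a block (consensus correlation 0.0831) and a mean-variance trend (16 residual and 4.86 prior degrees of freedom), with Benjamini-Hochberg adjustment over 14922 genes and a threshold of 0.05. FVB libraries shared the estimate of spread. Lines are told apart by the cell line numbers of the labels, and p-values measure the spread between these samples. A change is a fitted log2 difference, MommeD43 minus wild type. Genes were matched by Entrez identifier to the RefSeq table of GRCm38.p6 (14453 matched, 469 not), and 247 had no symbol. The codon was read from the GENCODE transcripts of GRCm38. Of the 24 deposited columns, 2 equal the mean of the other columns of their group and were left out.

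Named genes were those with the smallest p among genes of at least 1 CPM until 20 were named, the 5 smallest p of all, Smchd1, and in each list the 2 with the smallest p and the 2 highest. The text also names the 5 most variable genes per group above 3 log2 CPM and the 5 leading differences between strains. The 2 highest genes of a list were ranked by log2 CPM, which is not corrected for length. Some genes that these rules name are not reported here. The comparison, lists and rules were chosen with earlier results of these data known. The test was checked on simulated data. Tables and figures used Python 3.11.15 and matplotlib 3.10.9. Alternatives were another scaling (centring), a pseudocount of 1 CPM, a filter at 1 CPM, no weights, line means, other blocks, single batches, all 24 columns and leaving out each line.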

Additional observations from a re-analysis of the deposited data

Results flagged for a closer look

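In 8 of 114 groups of lines or libraries examined, 1 line lay far from the other 3 of its group, where chance gives about 1 in 20. Wild-type replicate 4 was the highest wild-type line for Csf2ra at 2.83 log2 CPM (next 1.44) and Tchh at 0.873 (next -0.812). It was also highest for the level of the clustered protocadherin beta genes, at 0.552 relative to the mean of the 8 lines (next 0.0155), and lowest for cytosolic ribosomal protein genes at -0.459 (next 0.0659). MommeD43 replicate 2 was highest for dorsal forebrain genes at 0.494 (next -0.004) and lowest for p53 and stress genes at -0.606 (next -0.0741) and for the S100 family with trichohyalin at -0.761 (next -0.0521). MommeD43 replicate 4 was lowest for cholesterol genes at -0.506 (next 0.0166).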

How the results depend on the processing

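The number of genes passing for MommeD43 against wild type (0) became 2 with the number before the point of the line label as block, 1 with the replicate block (911 at an unadjusted p under 0.05), 1 without the 2 lowest-weighted lines and 480 with all 24 columns, and it ran from 0 to 139 when each line was left out. In the other alternatives run it was 0. For the difference between strains (0) it was 61 with all 24 columns and ran from 0 to 12 over lines left out. The columns equal to a mean reduce the spread by construction. For the other changes the cause was not tested. Replicate numbers are not stated to pair samples, and deviations of same-numbered lines correlated at -0.375 to -0.00496. The block on the number before the point, which lines of both genotypes share, is also not stated to mark a litter.

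Genes whose lines do not overlap numbered 113 higher and 70 lower. Centring gave 75 higher and 94 lower, a floor of 1 CPM 43 lower, batch 1 alone 1207 and 1249, batch 3 alone 492 and 143, and leaving out each line 164 to 485 and 103 to 271, where fewer samples make separation easier.

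Within batch 3 the median change was 0.0953 for Polycomb, 0.164 for DNA and H3K9 methylation, 0.0748 for neural stem cell, 0.304 for dorsal forebrain, 0.0763 for oligodendrocyte, 0.731 for meningeal, 0.173 for Notch, 0.162 for Wnt and 0.825 for interferon genes. Within batch 1 it was -0.102 for neural stem cell genes. Without weights it was 0.318 for dorsal forebrain, -0.0579 for ependymal and 0.217 for Hedgehog genes. With line means these were 0.364, -0.0575 and 0.2, and microglia genes were at -0.24. With all 24 columns ependymal genes were at -0.0431. Leaving out each line gave -0.191 to 0.173 for protocadherin beta, -0.0864 to 0.0684 for gamma, -0.12 to -0.0496 for neural stem cell and -0.0965 to 0.0156 for Notch genes. Of 1098 alternative medians 1075 lay within 1 SD of the main value, the SD being that of the list over lines. This SD can exceed the median, as for protocadherin alpha with 0.954 against -0.392. A median could therefore turn sign and still be counted, and signs turned in at least 1 alternative for 34 of 38 lists.

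The change of Smchd1 (-0.00873) turned positive without weights (0.158), with line means (0.198), with the replicate block (0.0523), within batch 1 (0.0506), within batch 3 (0.0608), with all 24 columns (0.0964) and when lines were left out, with a range of -0.0727 to 0.0894, among them 0.0758, 0.0755, 0.00881 and 0.0164. Read depth is unknown, so precision is judged from the spread between libraries and lines alone.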
